A study of Mus musculus with 6 samples.

Results

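The 7 entries of a table of mature mouse miRNAs that were followed here as a group are the products of 4 hairpins that reach the enzyme Dicer without being cut by Drosha. They were mmu-miR-320-3p and mmu-miR-320-5p, mmu-miR-484, mmu-miR-1839-5p and mmu-miR-1839-3p, and mmu-miR-664-3p and mmu-miR-664-5p, written without the species prefix from here on. The rule lists them by name and uses no measured value, although it was drawn up with earlier results of these data known, and all 7 listed names were found among the 1626 miRNAs of the table. The small RNA libraries came from fetal livers of C57BL/6J mice, 3 of them wild-type (WT 1, WT 2 and WT 3) and 3 homozygous (-/-) for a deletion of the locus of miR-144 and miR-451a (KO 4, KO 5 and KO 6), each from 5000000 cells. The labels name no transgene or Cre, and they give neither the embryonic day nor whether replicates came from separate embryos, so p-values measure the spread between samples that may be technical replicates.

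Most miRNA hairpins are cut out of a long nuclear transcript by Drosha and its partner Dgcr8, exported, and cut again by Dicer. The hairpins of miR-320 and miR-484 skip the first cut: RNA polymerase II starts transcription at the foot of the hairpin, so that its 5′ end carries the cap of a nascent transcript. The cap hinders use of the 5p strand of the miR-320 hairpin, and the 3p strand is the one that enters Argonaute. The hairpins of miR-1839 and miR-664 are parts of H/ACA small nucleolar RNAs (snoRNAs), a class of RNAs that guide pseudouridylation, fold as a pair of hairpins, and end in an ACA box close to their 3′ end. Fetal liver makes the red cells of the embryo. The deleted locus makes miR-451a, which takes the opposite shortcut: it needs Drosha and not Dicer.

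RefSeq (GRCm38.p6) gave a mature sequence for 4 of the 7 members, and these are shown because their seeds, bases 2 to 8 from the 5′ end, decide which mRNAs a miRNA can pair with. The seed is in capitals, and miR-320-3p, miR-320-5p and miR-1839-3p had no entry.
miR-484: uCAGGCUCaguccccucccgau
miR-1839-5p: aAGGUAGAuagaacaggucuug
miR-664-5p: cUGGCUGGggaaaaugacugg
miR-664-3p: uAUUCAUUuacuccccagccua

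The 4 seeds differ from each other, and 0 of the other table miRNAs with a sequence (1376 had one) shared bases 2 to 8 with any of them. The seeds of the 3 members with no entry were not compared. Bases 2 to 7 of miR-1839-5p do match those of miR-196a-5p and miR-196b-5p, miRNAs of the Hox clusters, which were named after their values were seen. Bases 2 to 7 of miR-484 match those of miR-1191b-5p and miR-7656-3p, which had at most 8 and 10 counts in any library. Only those 6 bases are in capitals for the miR-196 pair.
miR-196a-5p: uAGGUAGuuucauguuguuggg
miR-196b-5p: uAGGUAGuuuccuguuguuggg

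These 4 sequences were 21 or 22 bases long (median of the table, 22). Their first base was U in miR-484 and miR-664-3p, A in miR-1839-5p and C in miR-664-5p, where 40.8% of the table's mature sequences start with U, 25.8% with A and 21.1% with C. Base composition was also uneven, with a G and C content of 63.6% in miR-484, 57.1% in miR-664-5p and 40.9% in both miR-1839-5p and miR-664-3p, against a median of 52.2%.

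The annotation places miR-1839 and miR-664 inside snoRNAs, while no library here lacks Drosha, so the way the members are made cannot be tested with these counts. In GENCODE M21 (GRCm38) Mir1839, at chr7:81529916-81529988 on the plus strand, overlaps a small Cajal body RNA (scaRNA, a snoRNA relative) of 127 bases at chr7:81529855-81529981. That region lies in an exon of a transcript of the lincRNA 2900076A07Rik. Mir664, at chr1:185242975-185243043 on the plus strand, overlaps the snoRNA Snora36b, 132 bases at chr1:185242907-185243038, in an intron of Rab3gap2, the gene of a subunit of a Rab3 GTPase-activating complex. The host RNAs are shown from GENCODE M21, in DNA letters, because the miRNAs can be read inside them, with the mature miRNAs of RefSeq in capitals.
scaRNA that holds Mir1839: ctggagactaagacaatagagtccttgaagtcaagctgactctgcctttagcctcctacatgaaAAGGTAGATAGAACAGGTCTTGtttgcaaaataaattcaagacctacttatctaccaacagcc
Snora36b: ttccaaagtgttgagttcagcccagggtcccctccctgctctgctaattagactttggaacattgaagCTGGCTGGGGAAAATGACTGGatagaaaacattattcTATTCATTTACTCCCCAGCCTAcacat

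In both hosts the miRNA hairpin lies in the 3′ part. It begins at base 62 of the scaRNA and at base 69 of Snora36b, and its annotation runs 7 and 5 bases past the annotated host end. Both hosts hold the letters ACA followed by exactly 3 more bases at their 3′ end (read on the transcript strand only), as do 301 (19.3%) of the 1558 snoRNA and scaRNA transcripts in the annotation. That set was not limited to H/ACA RNAs, and the share among H/ACA RNAs alone was not counted. The last base of miR-664-3p, base 127 of Snora36b, is the first A of the host's ACA. The files give counts only, with no read lengths or ends, so a mature miRNA and another fragment of the same snoRNA that was counted under its name cannot be told apart.

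**Figure D1:**
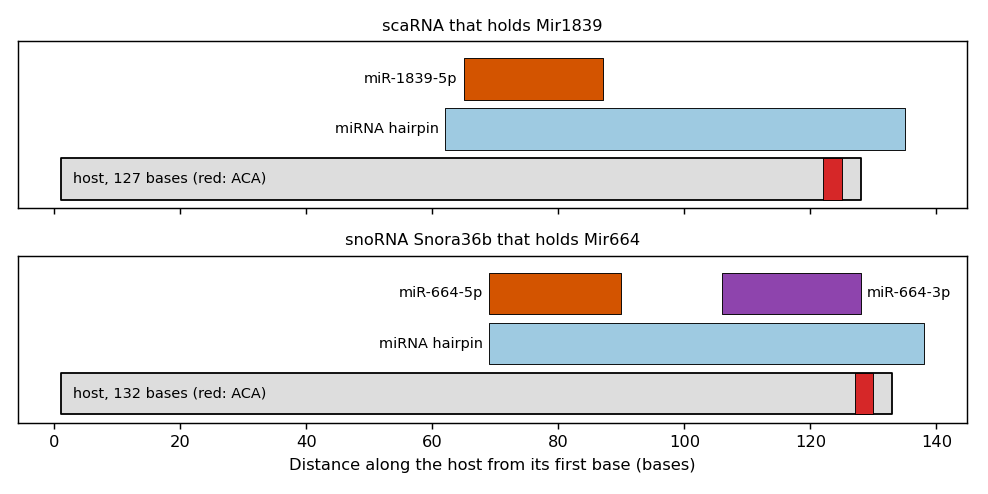
Position of the miRNA hairpins (blue), the mature miRNAs (orange and purple) and the ACA letters (red) along the scaRNA of 127 bases that holds Mir1839 and the snoRNA Snora36b of 132 bases, in bases from the host's first base. In both, the miRNA hairpin occupies the 3′ part, from base 62 and base 69.

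The capped hairpins lie beside or across protein-coding genes on the other strand. Mir320, at chr14:70443510-70443591 on the plus strand, is separated by 62 bases from Polr3d, the gene of an RNA polymerase III subunit, which is read from the minus strand and away from Mir320. Mir484, at chr16:14159626-14159692 on the plus strand, lies within Marf1, a gene on the minus strand, where it overlaps an exon of 1 Marf1 transcript. The Mir484 hairpin is shown with the mature miRNA in capitals, since its mature product is in the 5′ arm, from base 5 of 67, whereas the abundant product of the miR-320 hairpin is named for its 3′ arm.
Mir484: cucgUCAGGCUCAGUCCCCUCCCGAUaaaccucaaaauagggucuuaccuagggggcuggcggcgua

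The 3 hairpins with a sequence were of ordinary to low predicted stability, as folded with RNAfold. Mir664 had -0.407 kcal/mol per base, close to the median of -0.406 over 1005 RefSeq miRNA hairpins. Mir484 had -0.367 and Mir1839 -0.301 kcal/mol per base, and 66% and 88.2% of all hairpins were more stable per base.

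Libraries held 16243894 to 27089133 miRNA counts. The deleted locus took 17.6% to 24.1% of counts in WT libraries and 0.0214% to 0.0231% in KO libraries, so all 6 libraries matched their genotype labels. Markers of the tissue were present in every library: the hepatocyte miRNAs (miR-122-5p and miR-192-5p) summed to 31760 to 124900 CPM (counts per 1000000, scaled by edgeR's TMM factors) in WT and 39760 to 97290 in KO, and the blood miRNAs (miR-142a-3p and miR-223-3p) to 37140 to 44700 and 28810 to 45820 CPM. The hepatocyte sum was highest in WT 3 and KO 6. Of the erythroid markers, 2 of 3 are products of the deleted locus, and the other, miR-486a-5p, ranged from 43830 to 82220 CPM in WT and from 49710 to 69770 in KO. The endothelial marker miR-126a-3p ranged from 5878 to 8382 and 5980 to 8821 CPM, and the mesenchymal sum from 2184 to 2990 and 1938 to 2831 CPM. Muscle miRNAs, 3 of 3 detected in every library, summed to 14.4 to 400.3 CPM in WT and 13.3 to 83.5 CPM in KO. Their sum was highest in WT 1 and, within KO, in KO 4. The 2 neural miRNAs summed to 19.1 to 431.9 and 16.6 to 94.5 CPM, also highest in WT 1 within WT, and the part of muscle and neural cells in the results was not tested. In a bulk sample, fewer cells of a type and less RNA per cell cannot be told apart.

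Together the 7 members took 0.353%, 0.337% and 0.374% of all miRNA counts in WT 1, WT 2 and WT 3, and 0.634%, 0.572% and 0.569% in KO 4, KO 5 and KO 6. The Wilson 95% intervals, which cover counting error only, ran from 0.3506 to 0.3557, 0.3353 to 0.3396 and 0.3714 to 0.3764 in WT and from 0.6302 to 0.6379, 0.5687 to 0.5759 and 0.5663 to 0.5723 in KO. KO libraries spend almost no counts on the locus, which by itself raises every other share. As a share of counts outside the locus the members took 0.465%, 0.409% and 0.468% in WT and 0.634%, 0.572% and 0.569% in KO. The groups still did not overlap, and how many other miRNAs separate on this scale was not counted. Most of the members' counts came from miR-484, so the sum mainly follows that miRNA. It alone took 0.275%, 0.248% and 0.263% of all miRNA counts in WT and 0.454%, 0.404% and 0.368% in KO. The levels that follow are TMM-scaled CPM, which set the typical miRNA outside the locus to the same level in both genotypes (median log2 fold -0.01).

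Levels spanned more than 2 orders of magnitude among the members, in the order miR-484, miR-320-3p, miR-1839-5p, miR-1839-3p, miR-664-3p and miR-664-5p in WT. Levels are reads per mature miRNA, and the members with a sequence have nearly the same length. In WT the means of miR-320-3p (541.6 ± 80.9 CPM) and miR-1839-5p (474.1 ± 139 CPM) differed by less than either SD, and those of miR-664-3p (9.09 ± 2.72 CPM) and miR-664-5p (8.06 ± 0.71 CPM) by less than the SD of miR-664-3p (SD, n = 3 each). In KO these neighbours stood in the reverse order, at 743.3 ± 191 and 826.2 ± 118 CPM and at 11.1 ± 1.75 and 12.1 ± 1.18 CPM (SD, n = 3 each), and again differed by less than either SD.

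miR-484, a capped-hairpin miRNA known to repress the mitochondrial fission factor Fis1, was the most abundant member. It stood at 3122, 2778 and 3011 CPM in WT 1, WT 2 and WT 3 and at 3721, 3679 and 3393 CPM in KO 4, KO 5 and KO 6. All 3 KO libraries lay above all 3 WT libraries, but the nearest values, of KO 6 and WT 1, were close together. Its log2 fold of KO over WT was 0.28 (SE 0.12, 95% interval -0.004 to 0.56) and was 0.17 without WT 2 or without KO 4, and it did not pass edgeR's quasi-likelihood test (Benjamini-Hochberg adjusted p = 0.439). It ranked 60th in mean level in WT and 50th in KO among the 1626 miRNAs. It was also the steadiest abundant member, with a coefficient of variation between libraries of 5.91% in WT and 4.96% in KO.

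miR-320-3p, the strand of the capped miR-320 hairpin that accumulates, stood at 521.4, 472.8 and 630.7 CPM in WT and 729.9, 559.3 and 940.6 CPM in KO, in library order. The groups overlapped, since KO 5 lay below WT 3. Its log2 fold was 0.46 (SE 0.23, 95% interval -0.09 to 1.003; edgeR Benjamini-Hochberg adjusted p = 0.513), and without KO 6 it was 0.25. The highest library of each genotype, WT 3 and KO 6, was also the highest for miR-122-5p, the main hepatocyte miRNA. That miRNA stood at 117800 and 92260 CPM there, against 29320 to 50130 CPM in the other 4 libraries. WT 3 and KO 6 were also highest of their genotypes for the endothelial miR-126a-3p (8382 and 8821 CPM) and the mesenchymal miR-143-3p (2219 and 2131 CPM). The mesenchymal miR-199a-3p was highest in WT 1 and KO 6. In a fit with miR-122-5p as a covariate, added after the data were seen, the fold of miR-320-3p was 0.46 (SE 0.16, edgeR Benjamini-Hochberg adjusted p = 0.209). The cause of the shared pattern was not tested.

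miR-320-5p, the other strand, was nearly absent. It had 0 counts in WT 1, WT 2, WT 3 and KO 5, 4 counts in KO 4 and 3 counts in KO 6. For a count of 0 a floor of 3 counts was used, that is 0.145, 0.111, 0.131 and 0.182 counts per 1000000 in those 4 libraries. The upper limits of their Wilson 95% intervals were higher, at 0.185, 0.142, 0.168 and 0.233. In KO 4 the share was 0.246 per 1000000 (Wilson 95% interval 0.0958 to 0.633) and in KO 6 it was 0.125 (0.0424 to 0.367), so no difference between genotypes was detectable at this depth. It was the 1 member left out of the test by the filter on low counts, and no fold is given for it.

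The 2 strands of the miR-320 hairpin were thus very unequal. Over all 6 libraries the 5p strand had 7 and the 3p strand 82705 counts, so the 5p strand made up 0.00846% of the pair (exact binomial 95% interval 0.0034% to 0.0174%). Of the 187 hairpins with both arms listed and a leading arm with a mean of at least 1000 counts, 1 was more one-sided, let-7b, named after its values were seen.

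miR-1839-5p, the leading product of the scaRNA hairpin, stood at 325.5, 496.4 and 600.3 CPM in WT and 695.8, 925.2 and 857.6 CPM in KO. The 3 KO values were all higher than the WT values, and WT 1 was well below the other WT libraries. Its log2 fold of 0.80 (SE 0.25, 95% interval 0.20 to 1.40) was the largest among the members and did not pass the test over all miRNAs (edgeR Benjamini-Hochberg adjusted p = 0.271; unadjusted p = 0.0163). Without WT 1 the log2 fold was 0.59. In the fit with miR-122-5p as a covariate, added after the data were seen, it was 0.87 (SE 0.16) and passed narrowly (edgeR Benjamini-Hochberg adjusted p = 0.0487). The adjusted p ranged from 0.0366 to 0.747 over all alternatives. That fit called more miRNAs in general, 15 higher and 4 lower, against 4 and 3 in the reported fit. miR-1839-5p shares 6 seed bases with miR-196a-5p and miR-196b-5p. In library order, miR-196a-5p stood at 24.48, 3.81 and 3.10 CPM (WT) and at 9.88, 4.03 and 6.48 CPM (KO). Every KO value of miR-196a-5p lay below WT 1 and above WT 2 and WT 3. Its WT mean of 10.5 CPM (SD 12.1) thus rested on WT 1, beside a KO mean of 6.80 CPM (SD 2.94, n = 3 each). For miR-196b-5p the WT mean was 168.6 ± 41.9 CPM and the KO mean 131.7 ± 8.08 CPM (SD, n = 3 each).

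miR-1839-3p, the opposite arm of the same hairpin, was far less abundant and far tighter. It stood at 18.09, 18.02 and 19.72 CPM in WT and 24.91, 27.01 and 27.09 CPM in KO. The groups did not overlap, and the spread within each was close to counting error: the coefficient of variation was 5.18% in WT and 4.69% in KO, where counting alone gives 5.09% and 4.21%. The log2 fold was 0.50 (SE 0.17, 95% interval 0.10 to 0.90; edgeR Benjamini-Hochberg adjusted p = 0.299; unadjusted p = 0.022). The leading arm, by contrast, varied by 29.3% in WT and 14.3% in KO, where counting alone gives 1.0% and 0.753%.

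miR-664-5p, from the 5′ arm of the Snora36b hairpin, stood at 7.54, 8.87 and 7.76 CPM in WT and 10.74, 12.37 and 13.03 CPM in KO, with no overlap. These levels rest on 138 to 340 counts per library. The log2 fold was 0.58 (SE 0.19, 95% interval 0.14 to 1.02; edgeR Benjamini-Hochberg adjusted p = 0.273; unadjusted p = 0.0176). miR-664-3p stood at 8.03, 12.18 and 7.06 CPM in WT and 10.69, 9.55 and 12.99 CPM in KO. Its groups overlapped, since WT 2 lay above KO 4 and KO 5, and its log2 fold of 0.28 (SE 0.27, 95% interval -0.35 to 0.92; edgeR Benjamini-Hochberg adjusted p = 0.722) was 0.07 without WT 3 and 0.49 without WT 2. For this member counting gives a coefficient of variation of 7.18% in WT, and the libraries gave 29.9%.

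**Figure D2:**
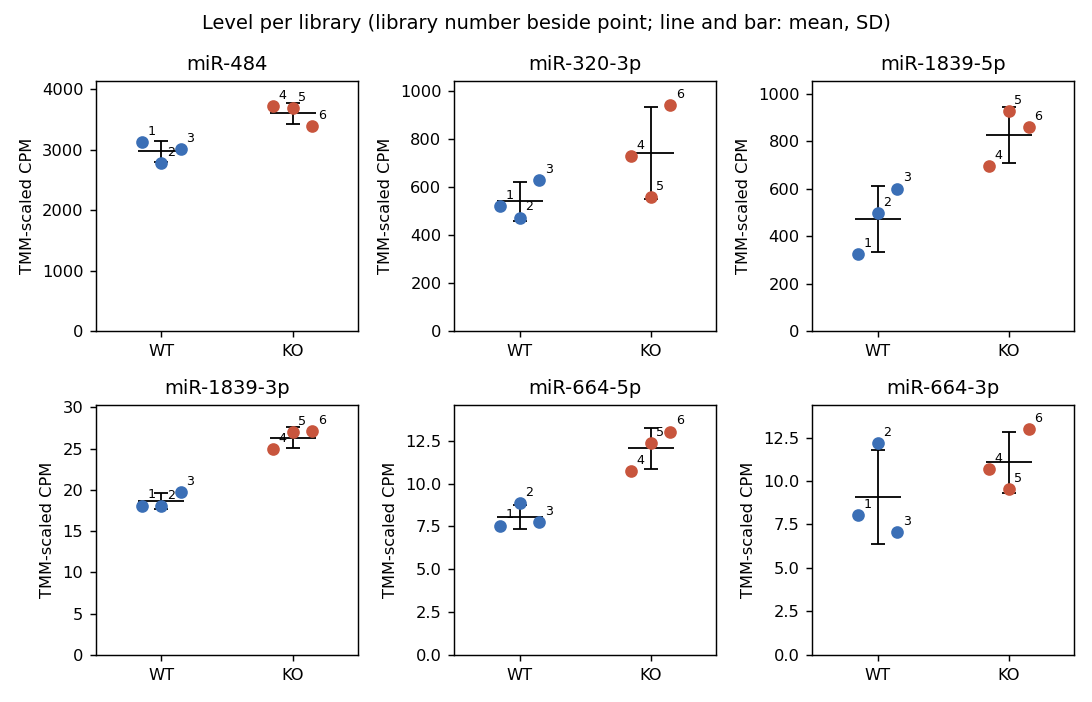
TMM-scaled CPM (linear axes from 0) of the 6 tested members in each library, numbered beside the point, with group mean and SD (line and bar, n = 3 per genotype). The 3 KO points lie above the 3 WT points for miR-484, miR-1839-5p, miR-1839-3p and miR-664-5p, and the groups overlap for miR-320-3p and miR-664-3p.

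No member passed the test between genotypes: 0 of the 6 tested were called by edgeR (adjusted p under 0.05), 0 by DESeq2 and 0 by limma-voom. By each tool 3 had an unadjusted p under 0.05. Over all miRNAs DESeq2 called 10 higher and 5 lower, of 1558 with an adjusted p. With limma-voom the calls were 5 and 3, of 876. The share of all miRNAs with an unadjusted p under 0.05 was not counted for DESeq2 or limma-voom. Over all 876 tested miRNAs 0.457% were called higher and 0.342% lower by edgeR, the latter being the locus, and 9.59% had an unadjusted edgeR p under 0.05 with a higher value in KO and 1.71% with a lower one. All 6 tested members had a log2 fold above 0, from 0.28 to 0.80 with a median of 0.48, where 416 of the 876 tested miRNAs were above 0 (47.5%) and the median was -0.01. KO lay above WT without overlap for 4 of the 6, against 15.9% of all tested miRNAs, and KO lay below WT for 0 of the 6, against 5.94%. The share of tested miRNAs with a higher fold was 7.99% for miR-1839-5p, 12.8% for miR-664-5p, 15.9% for miR-1839-3p, 17.9% for miR-320-3p, 25.7% for miR-664-3p and 26.1% for miR-484. The 2 arms of a hairpin come from the same transcript, so the 6 values are not separate observations. Some of the 876 background entries also nearly repeat each other. An example, named after its values were seen, is miR-328-3p and miR-6395, both called higher, with log2 folds of 1.1131 and 1.1139.

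By origin, the 2 tested capped-hairpin members had a median log2 fold of 0.37 and the 4 snoRNA-derived members one of 0.54. KO lay above WT without overlap for 1 of the 2 and 3 of the 4, against 15.9% of all tested miRNAs. The 4 snoRNA-derived members are the arms of only 2 hairpins. Whether the origins differ was not tested.

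**Figure D3:**
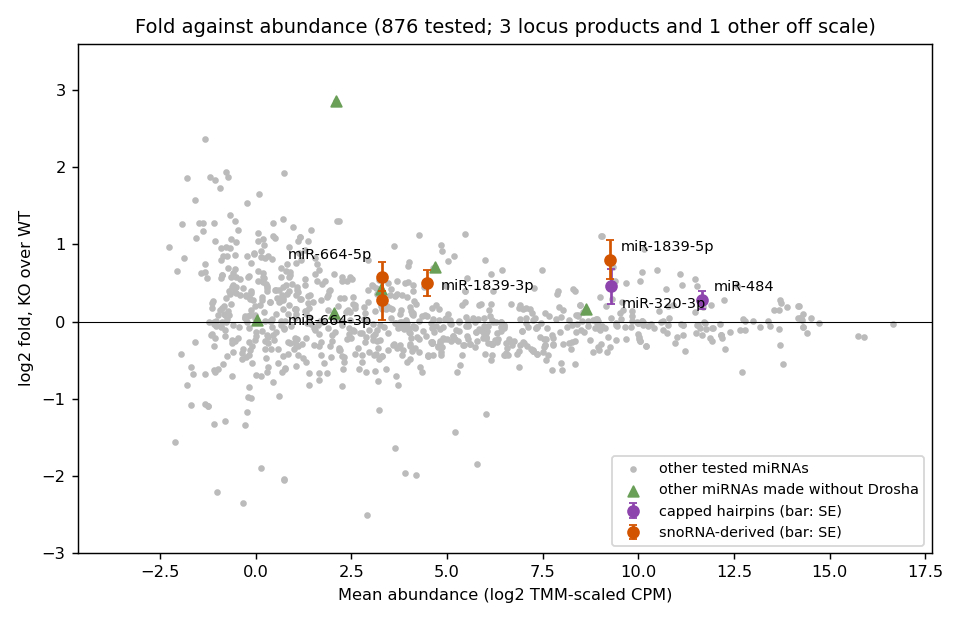
Mean abundance (x axis, log2 of TMM-scaled CPM) and log2 fold of KO over WT (y axis) of the tested miRNAs, with the capped-hairpin members in purple, the snoRNA-derived members in orange (bars are SE) and 6 other miRNAs made without Drosha as green triangles. All 6 members lie above 0, between 0.28 and 0.80, among many other miRNAs of like abundance; the locus products and miR-6957-5p, at a log2 fold of 6.80, are off scale.

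Without a scaling factor, that is, when counts were divided by library totals alone, 4 members passed: miR-484 (log2 fold 0.64), miR-1839-5p (1.16), miR-1839-3p (0.86) and miR-664-5p (0.94), where the adjusted p by edgeR (Benjamini-Hochberg) were 0.039, 0.0366, 0.0362 and 0.0342. On that scale the median miRNA outside the locus stood at 0.34, and 6.62% of the 876 miRNAs were called higher. The members' median was 0.84, and all 6 were above the median of the other miRNAs there as under every other scaling tried.

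**Figure D4:**
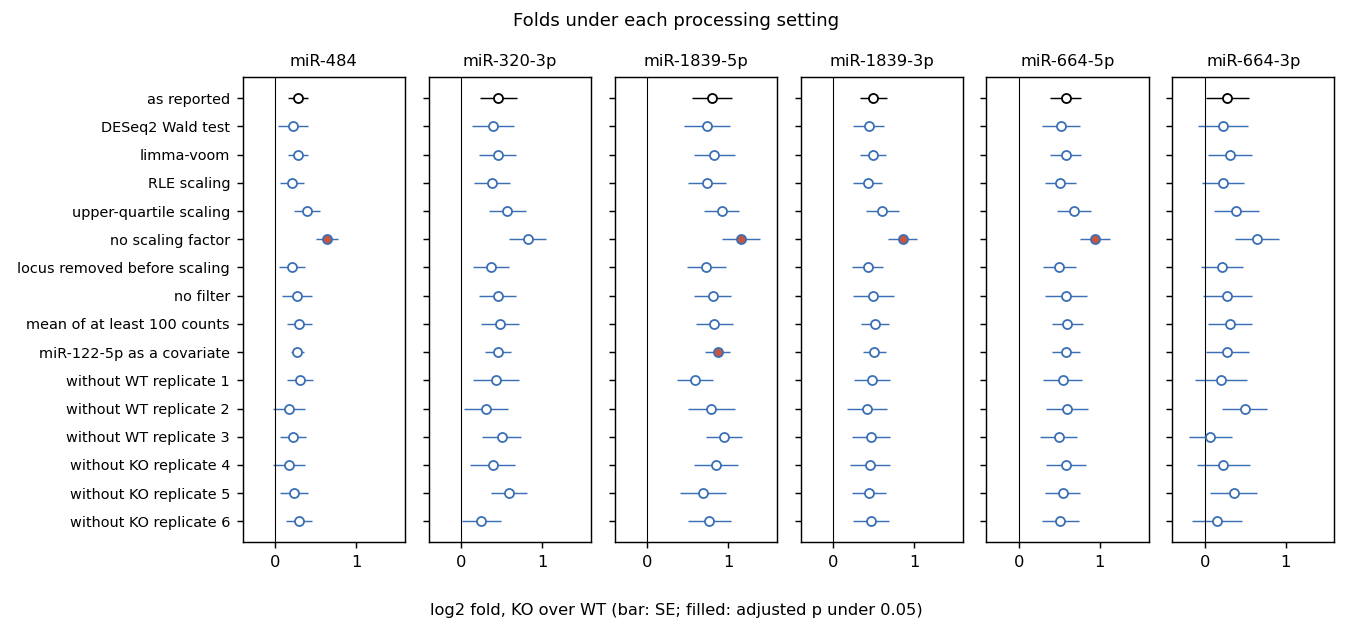
Log2 fold of KO over WT (points; bars are SE) of each tested member under each processing setting, with filled points where the adjusted p was under 0.05. Every point lies above 0; the filled points are 4 members with no scaling factor and miR-1839-5p with miR-122-5p as a covariate.

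The balance of the 2 arms was compared next, since both arms share the library's depth and their ratio needs no scaling. In miR-1839 the 5p arm had 17.9, 27.5 and 30.4 times the counts of the 3p arm in WT and 27.9, 34.2 and 31.6 times in KO, with 1 added to each count. The lowest ratio was that of WT 1, and the groups overlapped. The KO minus WT difference in the log2 ratio was 0.34 (SE 0.23; limma Benjamini-Hochberg adjusted p = 0.849 over 263 hairpins), and 0.11 without WT 1.

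The arms of miR-664 were almost equal, with ratios of 5p to 3p of 0.939, 0.729 and 1.1 in WT and 1.0, 1.29 and 1.0 in KO. The difference between genotypes was 0.26 (SE 0.29; limma Benjamini-Hochberg adjusted p = 0.945), and 0.10 without WT 2 and 0.14 without KO 5. Averaged over the 6 libraries its log2 ratio was -0.005, nearer to 0 than that of any of the other 262 hairpins, whose nearest was miR-5622 at 0.018, named after its value was seen. For comparison, the median size of the log2 ratio over the 263 hairpins was 3.22, and 24 of them (9.13%), miR-664 included, kept a ratio between 0.5 and 2 in every library. No hairpin passed the limma test of the arm ratio between genotypes (0 of 263, 0% called), and 5.7% had an unadjusted p under 0.05.

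**Figure D5:**
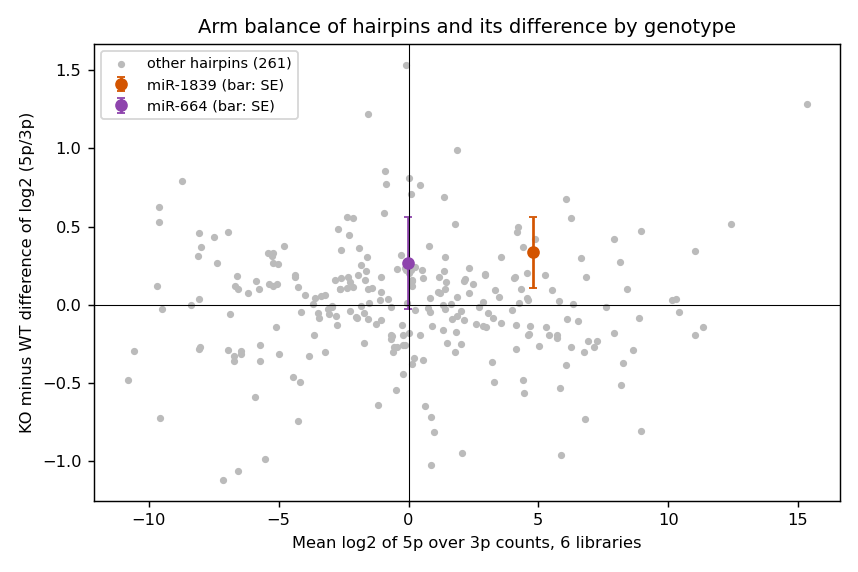
KO minus WT difference in the log2 ratio of 5p to 3p counts against the mean log2 ratio over 6 libraries, for the 263 hairpins whose arms both average 10 counts or more (bars are SE for the named hairpins). miR-664 lies at a mean of -0.005, almost on the line of equal arms, and miR-1839 at 4.79 on the 5p side.

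Other miRNAs made without Drosha gave a mixed picture. The list held both arms of the mirtrons miR-877, miR-1224 and miR-702, whose hairpins are spliced introns, and miR-1983, which comes from a tRNA-like transcript, and 6 of these 7 miRNAs passed the filter. Of these 1 was called, miR-1224-5p, which averaged 1.595 ± 0.431 CPM over the WT and 11.6 ± 1.5 CPM over the KO libraries (SD, n = 3 each; log2 fold 2.87, SE 0.28; edgeR Benjamini-Hochberg adjusted p = 0.00418). The next was miR-877-5p at 0.70 (SE 0.26; edgeR adjusted p = 0.356), and miR-877-3p stood at 0.42 (SE 0.23), miR-1983 at 0.16 (SE 0.15), miR-702-3p at 0.11 (SE 0.31) and miR-702-5p at 0.02 (SE 0.41). All 6 were above 0, against 47.5% of all tested miRNAs, with a median of 0.29. KO lay above WT without overlap for 4 of the 6, against 15.9%, and the 1 call compares with 0.457% called higher. Both arms of miR-877 are among those 4, and both arms of miR-702 among the 6. These 6 values are therefore not separate observations. miR-1224-3p had 4 counts in KO 4 and 0 in the other 5 libraries and was not tested.

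No other miRNA had the same counts as a tested member. The closest match was miR-877-3p for miR-664-3p, with a difference of up to 15.6% in a library. This comparison cannot show whether a member shares part of its reads with another miRNA or with its host snoRNA. The miRNAs most like the more abundant arm of each hairpin (for miR-664 the 3p arm, by a narrow margin in the mean of 6 libraries) across the 6 libraries, by Pearson's r of log2 CPM, were mostly rare. For miR-484 they were miR-6971-3p, miR-3069-3p and miR-324-5p (r = 0.981, 0.965 and 0.957, n = 6 libraries), of which miR-324-5p averaged 120.6 CPM in WT and the others 1.002 CPM and 0.306 CPM. For miR-1839-5p they were miR-3075-5p, miR-7219-5p and miR-7666-3p (r = 0.988, 0.969 and 0.968), for miR-320-3p miR-143-5p, miR-6988-3p and miR-7650-3p (r = 0.963, 0.922 and 0.876), and for miR-664-3p miR-1931, miR-7070-3p and miR-7026-3p (r = 0.95, 0.943 and 0.932). These 9 averaged 0.317 to 2.10 CPM in WT. With 6 libraries, and 876 miRNAs to choose from, such values are a description only, and no miRNA stood in more than 1 of these lists.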

How the data were processed

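The authors deposited raw read counts per mature miRNA for 6 libraries. The deposited table also has percent columns, each count as a percent of its library's total, which served only to check units. Per the labels, total RNA (Qiagen miRNeasy Mini) went into NEXTflex Small RNA libraries. Per the submitters' processing notes adapters were trimmed with cutadapt; aligner, miRNA release, build and the handling of multi-mapping reads are not given in the sources used here. Totals ranged from 16243894 to 27089133 counts, and intervals and floors (3 counts) cover counting error only. The series text names HITS-CLIP, the labels miRNA sequencing of total RNA.

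Counts were fitted in R 4.3.3 with edgeR 4.0.16 (filterByExpr, TMM factors, quasi-likelihood F-test), with Benjamini-Hochberg adjustment over 876 tested miRNAs and a call at an adjusted p under 0.05. The SE is the absolute log2 fold over the square root of F, and 95% intervals use the fit's degrees of freedom. Arm ratios were tested with limma 3.58.1 (trend) on the log2 ratio of 5p to 3p counts, 1 added to each, where both arms averaged 10 counts or more. Alternatives were DESeq2 1.42.0, limma-voom, 4 other scalings, 2 other filters, other arm settings, each library left out, and miR-122-5p as a covariate (added later). Both fits were run on simulated data with planted folds larger than those of the members and without the loss of the locus. That run therefore does not show the power for folds of the members' size. Folding used RNAfold 2.7.2. Named miRNAs were the members, the locus, any miRNA sharing bases 2 to 8 of a member (there were 0; the relatives over bases 2 to 7 fall outside the rule), the 3 most correlated miRNAs per leading arm, 7 other miRNAs made without Drosha, and cell markers. Members and lists were chosen with earlier results of these data known.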

Additional observations from a re-analysis of the deposited data

How the results depend on the processing

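All 6 tested members kept a log2 fold above 0 under each of the 15 alternatives run. With no scaling factor 4 members passed (miR-484 at 0.64, miR-1839-5p at 1.16, miR-1839-3p at 0.86, miR-664-5p at 0.94), and with miR-122-5p as a covariate 1 member passed, miR-1839-5p at 0.87; the reported test called 0. Leaving out each library in turn gave log2 folds of 0.17 to 0.31 for miR-484, 0.25 to 0.59 for miR-320-3p, 0.59 to 0.95 for miR-1839-5p, 0.42 to 0.48 for miR-1839-3p, 0.49 to 0.59 for miR-664-5p and 0.07 to 0.49 for miR-664-3p, with 0 members called each time. Over all miRNAs the reported 4 higher and 3 lower calls became 10 and 5 with DESeq2, 58 and 3 with no scaling factor and 15 and 4 with the covariate. The higher calls numbered 1 with RLE scaling, upper-quartile scaling or the locus removed before scaling, and 0 to 1 without single libraries (0 without KO 5); the cause was not tested. The arm ratio differences stayed above 0 under all 10 alternatives, at 0.11 to 0.49 for miR-1839 and 0.10 to 0.40 for miR-664 with libraries left out, and 0 hairpins were called. No paired analysis was run, because the labels do not say whether WT and KO libraries were matched (numbered 1 to 3 in WT, 4 to 6 in KO). In number order miR-122-5p rose in both genotypes, at 29320, 50130 and 117800 CPM in WT and 37310, 42830 and 92260 CPM in KO. A matching of the libraries in that order is therefore not excluded and was not tested. The miR-664 arms had 138 to 340 counts per library. At the mean count of each genotype their counting error was 6.21% to 7.69%, while miR-320-5p is too rare to compare.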
